A study of Mus musculus with 6 samples.

Results

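The annexins are a gene family that these data cover with 10 members, Anxa1 to Anxa9 and Anxa11, out of 23462 genes named on the array. Their probes were found by matching the accession of every non-control probe to RefSeq gene records, which gave 16 probes, with several for each of 5 genes and a single probe for each of the other 5. Expression was measured with 6 one-colour microarrays on isolated pancreatic acinar cells of C57BL/6 mice. In the KC group (3 samples) Cre recombinase expressed from Ptf1a, a gene of the pancreatic lineage, activates an oncogenic allele. The KCS group (3 samples) carries the same Ptf1aCre and oncogenic alleles and in addition Setdb1flox/flox, in which both copies of the histone methyltransferase gene Setdb1 are flanked by loxP sites. KC and KCS stand below for the samples so labelled. A Cre driven by Ptf1a targets cells of that lineage, and not fibroblasts, blood cells or vessels. The labels give no age and tie no sample to an animal of its own, so p-values measure the spread between these samples, which may be technical. By its title the series asks about the need for Setdb1 in the formation of pancreatic ductal adenocarcinoma and about apoptosis driven by p53.

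Annexins are cytosolic proteins that bind negatively charged phospholipids, phosphatidylserine among them, when calcium rises. A conserved core of repeats holds the membrane, and a variable amino-terminal tail binds partners, several of which are S100 proteins. They link membranes to the actin cytoskeleton, take part in vesicle traffic and help to reseal a torn plasma membrane, and some act outside the cell. In the pancreas ANXA2 and ANXA8 are known from studies of ductal tumours, and labelled annexin A5 is the common stain for dying cells.

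Facts of the whole series limit how levels can be read. Signal is given as scaled log2 signal, the log2 of the processed scanner signal minus the 75th percentile of the array, so 0 stands for a probe at that percentile. In scanner units the percentile ran from 61.2 to 68.6 in KC and from 347 to 423 in KCS. The median log2 fold change over 16257 tested genes was 0.07 on this scale, 0.42 with each array centred on its median and 2.95 when arrays were scaled to the Agilent spike-in controls. All 10 acinar markers (digestive enzyme genes and acinar transcription factors) were lower in KCS, and their summed scaled signal was 18890 to 21997 in KC and 3.63, 16.0 and 1524 in KCS replicates 1, 2 and 3. The calls of Cela2a and Ctrb1 held in 2 of 6 fits with an array left out and ended with quantile normalization (adjusted p = 0.0820 and 0.109). KCS replicates 1 and 2 thus held little of the transcripts that define the labelled cell type, and Pnlip and Ptf1a were well above background on 1 of 3 KCS arrays. The single Setdb1 probe read -0.91, -1.05 and -0.32 in KC and -0.28, -0.44 and -0.55 in KCS, a log2 fold change of 0.33 (adjusted p = 0.27), and since its place relative to the deleted part is not given here, it does not check the labels. In such bulk RNA, fewer cells of a type and less RNA per cell cannot be told apart.

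Of the 10 annexin genes, 5 rose in KCS, 1 fell and 4 did not pass the test, each gene being read from its brightest probe. Anxa1, Anxa2, Anxa3 and Anxa8 rose by more than 3 log2 units and Anxa5 by 1.59. Anxa9 fell by 0.94 on the scaled log2 signal, but was higher, by 1.94, with spike-in scaling. Over all tested genes 32.5% were called higher and 29.2% lower (limma, Benjamini-Hochberg adjusted p below 0.05), so a call as such is common here. The arrays of the 2 groups did not overlap for 7 of the 10 genes, against 70.9% of all tested genes, which is no larger a share. The median log2 fold change of the family was 1.10. By probe, 8 of 16 were higher and 1 was lower, where 26.8% of all tested probes were higher and 32.3% lower. All 16 probes passed the filter on dim signal, 12 of them well above background on all 6 arrays. The third Anxa9 probe passed through the KCS arrays alone.

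**Figure D1:**
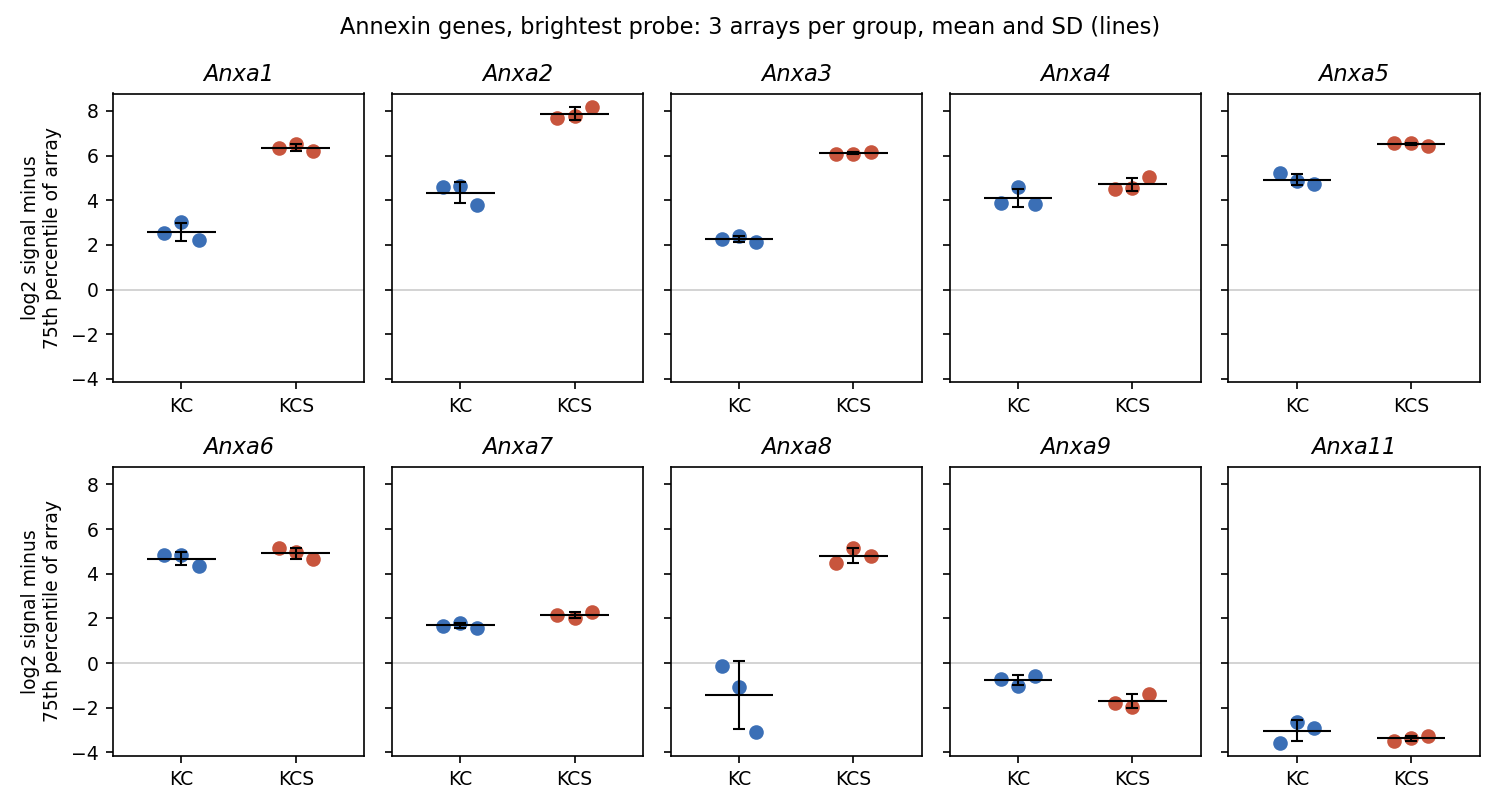
Scaled log2 signal (log2 signal minus the 75th percentile of the array) of the brightest probe of each annexin gene, with a point per array, a line at the group mean and bars of 1 SD, n = 3 per group. For Anxa1, Anxa2, Anxa3, Anxa5 and Anxa8 every KCS point lies above every KC point, and for Anxa4, Anxa6 and Anxa11 the groups overlap.

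Anxa1 encodes an anti-inflammatory protein that acts through formyl peptide receptors and was first described as an inhibitor of phospholipase A2. Its scaled log2 signal was 2.54, 3.01 and 2.20 in KC replicates 1, 2 and 3 and 6.35, 6.54 and 6.19 in KCS replicates 1, 2 and 3. The groups were more than 3 log2 units apart at their nearest arrays, and the KC arrays were the more spread. It rose by 3.78 ± 0.25 (SE, n = 3 per group, limma adjusted p = 0.000113), a 13.7-fold difference. A second, dimmer Anxa1 probe gave 3.65 ± 0.25, so both probes of the gene moved alike.

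Anxa2 encodes the annexin that pairs with S100A10, binds actin under the membrane and serves at the cell surface as a docking site for plasminogen and its activator. Its scaled log2 signal was 4.58, 4.65 and 3.79 in KC and 7.67, 7.79 and 8.19 in KCS. The groups did not overlap, and KC replicate 3 was the lowest array and KCS replicate 3 the highest. Anxa2 rose by 3.55 ± 0.29 (adjusted p = 0.000198), or 11.7-fold. Its second probe ran from -1.10 to -0.23 in KC and from 3.22 to 4.03 in KCS, a change of 4.14 ± 0.32, so both probes moved the same way.

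Anxa3, an annexin abundant in neutrophils, had the tightest KCS group of the family. It stood at 2.28, 2.38 and 2.13 in KC and at 6.06, 6.09 and 6.15 in KCS, so that the KCS arrays lay within 0.08 of each other. The change was 3.84 ± 0.16 (adjusted p = 5.62e-05), and 4.07 ± 0.18 by the second probe. Leaving out any single array moved it only between 3.77 and 3.89.

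Anxa8 encodes an annexin of stratified epithelia that is found on late endosomes, and it showed the largest change of the 10 genes. In KC its signal was -0.11, -1.09 and -3.08, and the probe was not well above background in KC replicate 3. The KCS arrays read 4.48, 5.17 and 4.79. The groups were far apart, but the KC arrays alone spanned 2.96 log2 units, more than any other brightest probe of the family in either group. Anxa8 rose by 6.24 ± 0.72 (adjusted p = 0.000582), and 74 of the 16257 tested genes had a larger log2 fold change. The difference was 4.59 on the first slide, 7.06 on the second, and 5.41 when KC replicate 3 was left out, so its size is less certain than its direction.

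Anxa5, whose protein binds phosphatidylserine on the surface of apoptotic cells, rose by less. Its signal was 5.21, 4.85 and 4.73 in KC and 6.57, 6.55 and 6.45 in KCS. The KCS arrays were within 0.12 of each other and all above the KC arrays. The change was 1.59 ± 0.19 (adjusted p = 0.000697), or 3.02-fold, and 17.7% of all tested genes had a larger log2 fold change.

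The sequences before the start sites are shown for the 3 strongly raised genes that the promoter table holds, and for the gene that fell. Of the 10 members 8 were matched in the RefSeq table of GRCm38.p6, in 11 windows, with Anxa3 and Anxa6 unmatched. Each sequence is the 250 bases before an annotated start, read 5′ to 3′ on the gene's strand. The motifs searched, on both strands, were TGANTCA, the AP-1 element, TATAAA, the TATA box, and GGGCGG, the GC box. Capitals mark matches, which are descriptions of letters and not of bound sites.
Anxa1, chr19:20390672-20390921, minus strand: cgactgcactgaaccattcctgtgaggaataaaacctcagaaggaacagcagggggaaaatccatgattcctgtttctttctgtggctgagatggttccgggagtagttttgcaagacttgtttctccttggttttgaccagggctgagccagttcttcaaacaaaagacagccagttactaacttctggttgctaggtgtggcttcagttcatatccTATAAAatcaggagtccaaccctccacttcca
Anxa2, chr9:69453433-69453682, plus strand: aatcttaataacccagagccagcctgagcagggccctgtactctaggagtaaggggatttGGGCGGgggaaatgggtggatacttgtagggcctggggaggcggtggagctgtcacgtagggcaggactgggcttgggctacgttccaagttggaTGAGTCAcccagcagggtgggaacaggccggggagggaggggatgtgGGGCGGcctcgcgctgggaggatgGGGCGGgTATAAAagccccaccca
Anxa8, chr14:34085729-34085978, plus strand: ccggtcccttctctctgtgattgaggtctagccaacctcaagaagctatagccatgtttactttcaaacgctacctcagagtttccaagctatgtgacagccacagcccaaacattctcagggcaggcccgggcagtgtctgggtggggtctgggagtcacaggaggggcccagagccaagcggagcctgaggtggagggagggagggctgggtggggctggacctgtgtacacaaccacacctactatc
Anxa9, chr3:95315181-95315430, minus strand: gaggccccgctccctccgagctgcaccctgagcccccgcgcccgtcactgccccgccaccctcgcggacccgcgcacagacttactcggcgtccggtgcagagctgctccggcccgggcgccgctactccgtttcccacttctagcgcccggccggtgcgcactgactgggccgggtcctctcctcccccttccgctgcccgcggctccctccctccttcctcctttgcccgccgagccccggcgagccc
The Anxa1 window held TATAAA beginning 32 bases before the start. The Anxa2 window held TATAAA beginning 17 bases and TGAGTCA beginning 95 bases before the start, and 3 copies of GGGCGG. Of 32851 windows of this length, 12.4% held TATAAA, 6.75% TGANTCA and 32.7% GGGCGG. The Anxa8 window and this Anxa9 window held none of these letters, and their G and C content was 58.0% and 75.6%, against a median of 52.4% over all windows. CpG pairs numbered 2 for Anxa1, 9 for Anxa2, 4 for Anxa8 and 30 for this Anxa9 window, where the median window had 6. Another Anxa9 window, not printed here, had 3 CpG pairs, a G and C content of 58.8% and no match. Anxa5, which rose, and Anxa4 held no match either, and Anxa7 and Anxa11 held GGGCGG.

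Anxa4, Anxa6, Anxa7 and Anxa11 did not pass the test. Anxa4, an epithelial annexin, was at 3.88, 4.59 and 3.85 in KC and 4.52, 4.54 and 5.06 in KCS, with KC replicate 2 inside the KCS range. Its log2 fold change was 0.60, with a 95% interval from -0.07 to 1.28 (adjusted p = 0.106), and the second probe gave 0.45. It passed without KC replicate 2 (0.85, adjusted p = 0.0318) and under 4 scaling or background alternatives, with 0.96 after median centring (adjusted p = 0.0201), 0.80 after quantile normalization (adjusted p = 0.0458), 1.24 with normexp and 3.48 with spike-in scaling.

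Anxa6, which carries a duplicated core and takes part in endosome traffic and membrane repair, was at 4.85, 4.83 and 4.35 in KC and 5.14, 4.97 and 4.64 in KCS. The groups overlapped, and the log2 fold change was 0.24 with an interval from -0.31 to 0.79 (adjusted p = 0.394). Anxa7, or synexin, known for aggregating secretory granules, was at 1.67, 1.81 and 1.57 in KC and 2.16, 2.02 and 2.28 in KCS. The arrays did not overlap, but the difference of 0.47, with an interval from 0.05 to 0.88, fell short of the threshold (adjusted p = 0.0547). It passed under 6 alternatives: median centring (0.82, adjusted p = 0.00739), spike-in scaling (3.35), normexp (0.83), no dim filter (0.0430), probes well above background on all 6 arrays (0.0349), and eBayes with trend and robust settings (0.0300), where the last 3 values are adjusted p at an unchanged 0.47.

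Anxa11 encodes a protein that binds the calcium sensor ALG-2 and tethers RNA granules to lysosomes. Its probe was dim, with processed signals of 5.66 to 10.9 scanner units in KC and 34.9 to 41.6 in KCS, and was well above background on 1 KC array and on all KCS arrays. On the scaled log2 signal these were -3.56, -2.65 and -2.89 in KC and -3.49, -3.34 and -3.26 in KCS. The groups overlapped, and the log2 fold change was -0.33 with an interval from -0.97 to 0.31 (adjusted p = 0.316). It passed at -0.60 without KC replicate 1 (adjusted p = 0.0488), and spike-in scaling put it at 2.55. With normexp, whose added offset weighs most on dim probes, Anxa11 passed at -1.32 (limma adjusted p = 3.18e-05).

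Anxa9 encodes an atypical annexin whose calcium sites are not conserved. The brightest of its 3 probes was at -0.70, -1.02 and -0.58 in KC and -1.78, -1.96 and -1.38 in KCS, with no overlap. That probe fell by 0.94 ± 0.23 (adjusted p = 0.0120). The second probe, well above background on 2 of 3 KC arrays, gave -0.10 with an interval from -0.95 to 0.75 and overlapping groups. The third was at background in all KC samples, so its change was not measured. The call ended with median centring (-0.58, adjusted p = 0.0559), within the second slide alone (-0.87, adjusted p = 0.0778) and with the mean of the 3 probes (-0.20, adjusted p = 0.617).

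**Figure D2:**
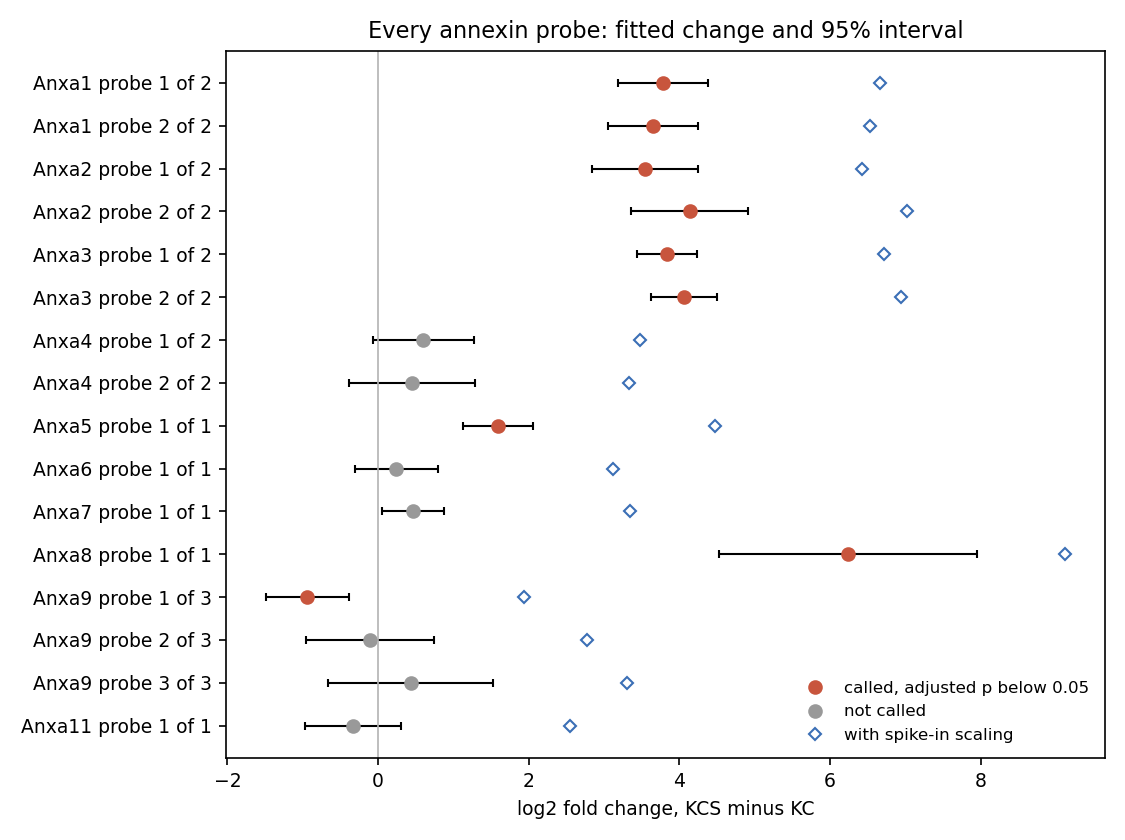
Log2 fold change (KCS minus KC) of all 16 annexin probes, with 95% intervals from the limma fit; red points passed at an adjusted p below 0.05, grey points did not, and open diamonds give the same probe with spike-in scaling. Probes of Anxa1, Anxa2 and Anxa3 lie between 3.55 and 4.14, the 3 fitted values of Anxa9 between -0.94 and 0.43 (the third probe at background in KC), and spike-in scaling puts all 16 above 0.

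Replicate 1 of both groups lay on a first slide, and replicates 2 and 3 on a second. Within the first slide the differences of the risen genes were 3.82 for Anxa1, 3.08 for Anxa2, 3.78 for Anxa3 and 1.36 for Anxa5, and within the second they were 3.76, 3.78, 3.86 and 1.71. Each of these 4 genes thus differed by a similar amount on both slides, with Anxa2 and Anxa5 somewhat larger on the second. Anxa11 differed by 0.07 on the first and by -0.53 on the second. With each array left out in turn the change ran from 3.59 to 3.99 for Anxa1, from 3.27 to 3.70 for Anxa2, from 1.49 to 1.73 for Anxa5 and from 5.41 to 6.90 for Anxa8, and all 5 risen genes passed in each of these 6 fits.

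A difference from the family's own mean on the same array is free of any scaling that shifts a whole array by 1 value, and it shows unequal change. It is not free of quantile normalization or normexp, which alter probes unequally. These differences sum to 0 over the 10 genes by construction, so only the distances between genes can be read from them. From KC to KCS the log2 signal minus that mean changed by 4.34 for Anxa8, 1.93 for Anxa3, 1.88 for Anxa1 and 1.64 for Anxa2. For Anxa5 it was -0.31, with overlapping groups. Lower still were Anxa4 (-1.30), Anxa7 (-1.44), Anxa6 (-1.66), Anxa11 (-2.24) and Anxa9 (-2.84). Anxa1, Anxa2 and Anxa3 thus lay close to each other, with Anxa8 far above them on this scale. With normexp the fitted log2 fold changes were 5.17 for Anxa8, 4.28 for Anxa1, 4.20 for Anxa2 and 4.32 for Anxa3. The lead of Anxa8 was smaller there. Normexp adds an offset of 50 scanner units to every signal, which weighs most on dim probes, as Anxa8 was in KC.

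**Figure D3:**
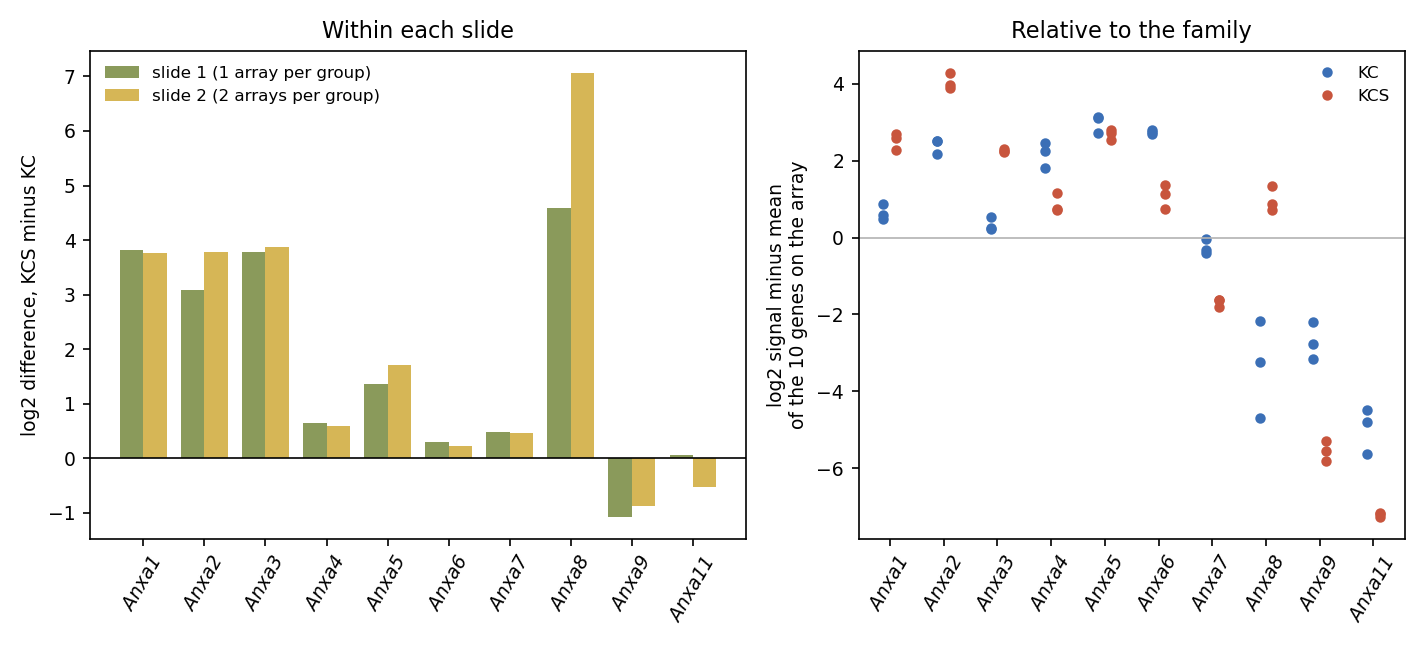
Left, difference in scaled log2 signal (KCS minus KC) of each annexin gene within the first slide (1 array per group) and the second slide (2 arrays per group); Anxa8 differs most between slides, at 4.59 and 7.06. Right, log2 signal of each gene minus the mean of the 10 genes on the same array, with a point per array; changes against that mean sum to 0, and run from 4.34 for Anxa8 to -2.84 for Anxa9.

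Outside the 10 members the array holds 2 further annexin genes, and both were unlike them in how much the KCS samples differed. Anxa10, an annexin of gastric epithelium, was near background throughout KC and read -0.87, 2.45 and 4.51 in KCS replicates 1, 2 and 3. KCS exceeded KC at least 33.4-fold, a bound that takes, for each KC array, the lowest signal counted as well above background. The bound was 14.1-fold without KCS replicate 3 and 91.4-fold without KCS replicate 1, and the fit's adjusted p of 0.00349 rests on KC signals at background. With normexp the fitted log2 fold change of Anxa10 was 2.94 (limma adjusted p = 0.0407). The normexp offset weighs most on such dim signals, so this size cannot be set against the bound. Anxa13, an annexin of intestinal and kidney epithelium, was at 2.81, 2.72 and 2.32 in KC and -0.87, 2.04 and 2.80 in KCS. KCS replicate 1 alone was far below the KC arrays, and the difference of -1.29 (interval from -3.44 to 0.85) did not pass (adjusted p = 0.251). The SD over the KCS arrays was 2.72 for Anxa10 and 1.93 for Anxa13, against 0.04 to 0.35 for the brightest probes of the 10 members and a median of 5.03 for the acinar markers. KCS replicate 1 was the lowest and KCS replicate 3 the highest of the KCS arrays for Anxa10, for Anxa13 and for the acinar sum, and the relation between them was not tested.

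Partners of annexins moved in KCS as well. Of 13 genes in that list 12 rose and 1 fell (median log2 fold change 2.60), beside 32.5% higher and 29.2% lower over all tested genes. Among the S100 partners, S100a10, which forms the Anxa2 tetramer, rose by 2.60 ± 0.28 (adjusted p = 0.000477), from a range of 1.38 to 2.27 in KC to 4.32, 4.35 and 4.80 in KCS. S100a11, a partner of Anxa1, was at 1.85, 1.66 and 1.30 in KC and 5.27, 5.46 and 5.59 in KCS. It rose by 3.84 ± 0.21 and S100a6, a partner of Anxa11, by 4.04 ± 0.35. Pla2g4a, the cytosolic phospholipase A2 that Anxa1 was found to restrain, rose by 4.14 ± 0.27. S100a4, a relative of these S100 genes, rose by 3.46 and Tgm2, a transglutaminase, by 1.78. Smaller rises were those of Ahnak, a giant scaffold protein of the Anxa2 complex (1.62), Plgrkt, a plasminogen receptor (1.61), and Sri, which encodes the calcium protein sorcin (1.58). Pdcd6, which encodes ALG-2, rose by 0.58 ± 0.19 (adjusted p = 0.0370), a call that held in 1 of 6 fits with an array left out (adjusted p up to 0.103).

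Both receptor genes for Anxa1 were higher in KCS, and a relative of theirs was lower. Fpr1, at background in all KC samples, read 0.92, -0.35 and 0.61 in KCS and was there at least 10.7-fold higher (8.95-fold without KCS replicate 1). Its adjusted p of 9.81e-05 rests on KC signals at background. With normexp, whose offset weighs most on dim signals, its fitted log2 fold change was 1.33, which cannot be set against that bound. Fpr2 was at -1.13, -1.22 and -1.45 in KC and 2.91, 2.36 and 1.18 in KCS, a rise of 3.42 ± 0.43 (adjusted p = 0.000854). Fpr3, a relative of these receptors, was at -0.46, -1.16 and -1.14 in KC, was at background in all KCS samples, and was at least 21.6-fold lower in KCS (adjusted p = 0.000245, with KCS signals at background). With spike-in scaling that bound was 2.94-fold, and the fitted change with normexp was -2.31.

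Changes of annexin and partner were also compared on the same array, over 5 pairs, by the brightest probe of each gene. A ratio's own level depends on the probes, and its change can too, as the 2 Anxa2 probes changed by 3.55 and 4.14. The log2 ratio of Anxa1 to S100a11 was 0.68, 1.34 and 0.91 in KC and 1.08, 1.08 and 0.60 in KCS, a change of -0.06 with overlapping groups (exact two-sided permutation p = 0.9). Anxa2 gained on S100a10 by 0.94, with ratios of 2.31, 2.65 and 2.41 in KC and 3.34, 3.45 and 3.40 in KCS. Anxa7 lost 1.11 to its partner Sri. The ratios of Anxa11 to S100a6 and to Pdcd6 were lower in KCS, but no size is given for them, since 1 of 3 KC arrays had the Anxa11 probe well above background. In these last 4 pairs the groups did not overlap, and the exact permutation p was 0.1, the smallest that 3 against 3 samples allow (0.125 after adjustment over the 5 pairs).

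Genes of plasma membrane repair rose in 10 of 12 cases, none fell, and their median log2 fold change was 1.19, where 32.5% of all tested genes were higher and 29.2% lower. Myof, which encodes the membrane fusion protein myoferlin, rose by 4.31 ± 0.25 (adjusted p = 8.49e-05), from 0.38, 0.70 and -0.02 in KC to 4.71, 4.90 and 4.39 in KCS. Its relative Dysf, or dysferlin, rose by 1.72 ± 0.28, and the calpain genes Capn1 and Capn2, whose proteases act when calcium enters, by 1.39 and 1.34. Chmp4b, a subunit of the ESCRT-III complex that seals membranes, was at -0.27 (adjusted p = 0.633), and the ATPase gene Vps4a at -0.36 (adjusted p = 0.224). The calls of Cav1 and Vps4b each held in 3 of 6 fits with an array left out, and normexp turned Cav1 to -0.74.

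**Figure D4:**
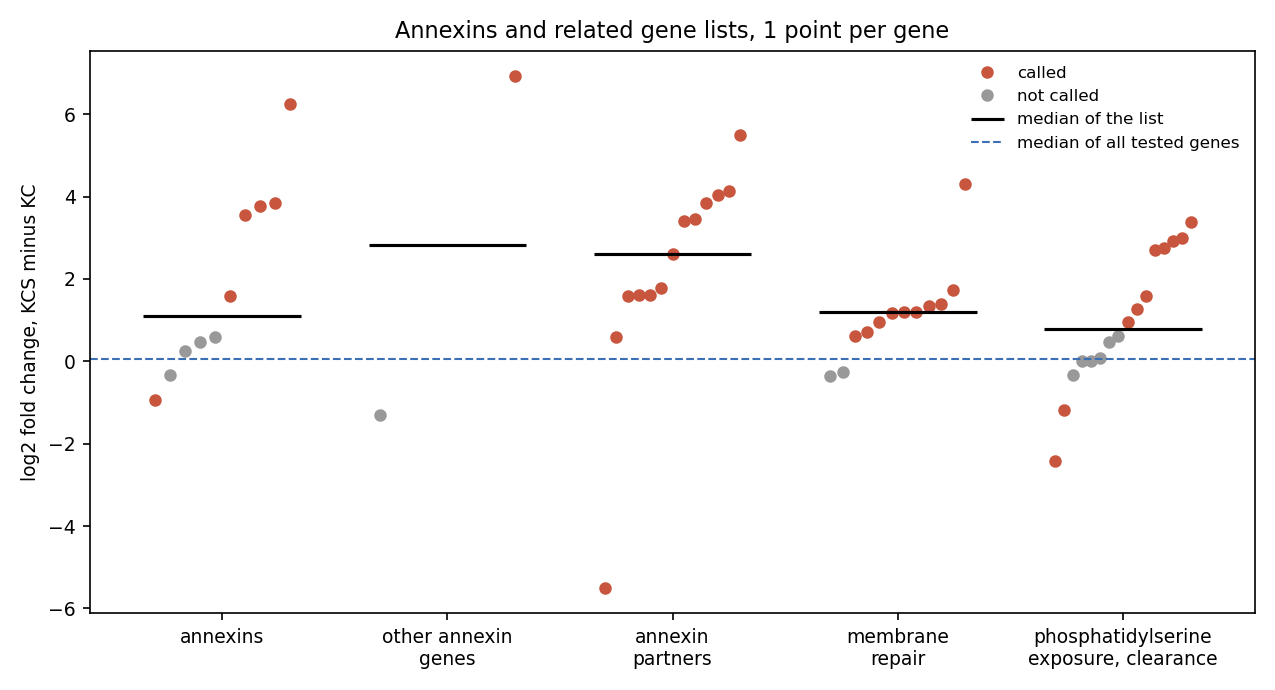
Log2 fold change (KCS minus KC) of each gene of 5 lists, read from its brightest probe, with red points for genes that passed, grey points for those that did not, black lines at list medians and a dashed line at the median of all tested genes (0.07). The partner list has 12 of 13 genes above 0 with Fpr3 alone below, and the repair list has 10 of 12 passing above 0. Values of Fpr1, Fpr3, Anxa10, Adgrb1 and Elmo1 rest on a group with no array well above background.

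Markers of other cell types also differed between KC and KCS, to be read beside 32.5% higher and 29.2% lower among all tested genes. All 8 fibroblast markers rose, and their summed scaled signal was 197 to 261 in KC and 1057 to 1317 in KCS, though Dcn overlapped between groups and passed in 2 of 6 fits with an array left out. All 8 macrophage markers rose too, with sums of 23.0 to 36.9 in KC and 322 to 445 in KCS. Of 8 ductal markers 5 rose and none fell, with sums of 37.4 to 49.2 and 276 to 347. Of 7 neutrophil markers 4 rose and 1 fell, with sums of 147 to 245 and 97.4 to 111 that Csf3r, the gene that fell, dominated (its call ended with quantile normalization, adjusted p = 0.582). The median scaled log2 signal of that list went the other way, from between -3.24 and -2.32 in KC to between 0.12 and 1.14 in KCS, and Mpo and Cxcr2 were at background in all KC samples. Endothelial markers (5 of 6 rose, sums of 12.1 to 14.9 and 23.3 to 56.5), lymphocyte markers (2 of 7 rose and 2 fell, sums of 6.46 to 12.6 and 1.66 to 5.79, with Cd3g and Ms4a1 at background in all KC samples) and mesothelial markers (2 of 4 rose, sums of 2.24 to 5.58 and 13.3 to 20.8) moved less evenly. Of their calls, those of Kdr and Msln held in 3, and those of Tek and Nkg7 in 2, of the 6 fits with an array left out. The sum over the 10 annexins was 87.9 to 124 in KC and 532 to 616 in KCS. The part of these cell types in the annexin values was not tested.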

How the data were processed

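RNA of 6 samples (3 KC, 3 KCS) was hybridised to 1-colour Agilent arrays, 1 per sample. Per the file headers and the submitters' processing notes, Agilent Feature Extraction 12.0.3.1 read the images, and its processed signal is an intensity already corrected for background. The deposited value table holds log2 values. Its 36110 non-control rows matched scaled scanner signals centred by probe (lowest r across probes 0.999999), and its column medians ran from -0.01 to 0.10 in KC and from -0.05 to -0.03 in KCS.

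Values are log2 processed signals, scaled by subtracting each array's own 75th percentile (all probes but controls). Outlier spots were left out and spots of a probe averaged; no spot was saturated. Probes were named through RefSeq accessions (33767 of 56605 probes), and no probe or gene positions are printed because the files name another build; promoter windows carry GRCm38.p6 coordinates. Probe sequences were not used, so cross-hybridisation was not examined. Probes reaching well above background on 3 or more of the 6 arrays (34485) entered a single limma 3.58.1 fit (lmFit, eBayes) without covariates under R 4.3.3; p-values were adjusted by Benjamini-Hochberg and called below 0.05. Intervals are 95% intervals of that fit. A gene was counted by its brightest probe (highest mean of the 6 arrays). Named were all members with every probe, up to 4 genes of a list with the smallest p-value, and S100a10, S100a11, Fpr1, Fpr2, Dysf, Myof, Mertk and Axl in any case. All other list genes named were chosen after their values were seen. Members and lists were chosen with earlier results of these data known.

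A gene with no array of a group well above background has only a bound there. Arrays give no counting depth, and their number limits the precision. Same-numbered arrays deviated from their group means with correlations of 0.31, 0.04 and 0.12, so the numbers were not taken to pair samples. The fit was tested on simulated data. Alternatives were quantile normalization, median centring, spike-in scaling, normexp, the value table, other dim filters, other probe rules, array weights, eBayes with trend and robust settings, outlier spots included, the second slide by itself, blocks for replicate and slide, a stricter threshold, and leaving out each array. Normexp was run on median signals, chosen after seeing that the files hold no mean signal, and added an offset of 50 scanner units. That offset weighs most on dim probes, so normexp values and calls of dim genes are not like those of the other fits. The bounds of Fpr1, Fpr3 and Anxa10 under other scalings and with arrays left out were also added after seeing the data.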

Additional observations from a re-analysis of the deposited data

How the results depend on the processing

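Under 22 alternatives Anxa1, Anxa2, Anxa3 and Anxa5 stayed higher in KCS and past the threshold in every fit, and Anxa8 in all 21 that tested it (it leaves the probes well above background on all 6 arrays). With 1 array left out, 5 to 6 annexin genes were higher and 1 to 2 lower, the second being Anxa11 without KC replicate 1, and 16510 to 19117 probes were called, against 20373 with all arrays. Spike-in scaling called 31538 probes and all 10 annexin genes higher, with 0 lower (0 also at an unadjusted p below 0.05); it turned Anxa9 to 1.94 and the log2 fold change of Anxa11 to 2.55, and median centring turned the log2 fold change of Anxa11 to 0.0213. Normexp called 8 annexin genes higher and 2 lower, Anxa9 and Anxa11. It called 12343 of the 16257 tested genes, 47.1% of them higher, and its median log2 fold change over all tested probes was -0.62. Without the filter on dim probes 38161 probes were called. No annexin gene (0) was called lower by limma with median centring, in the second slide alone, at an adjusted p below 0.01 or when a gene's probes were averaged; at an unadjusted p below 0.05 the counts were 1, 1, 1 and 0. The share of gene calls that were higher was 52.7%, and 66.0% with median centring and 97.0% with spike-in scaling. The median of the family ran from 0.98 to 3.98. With the replicate block 20321 probes were called, with 5 annexin genes higher and 1 lower, and with the slide as a block 21397. The cause of these shifts was not tested. Signal near background limits Anxa11, the dimmer Anxa9 probes and Anxa8 in KC replicate 3.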

Other observations

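Genes that expose phosphatidylserine, the lipid that annexin A5 binds, or that clear cells bearing it were not part of the comparisons above. Of 16 in the list 8 rose, 2 fell and 6 did not pass, with a median log2 fold change of 0.79, beside 32.5% of all tested genes higher and 29.2% lower. Among those called higher, Elmo1 was at background in all KC samples, so its change was not measured. Its call ended with normexp (-0.19, limma adjusted p = 0.235). The scramblase genes Ano6 and Xkr8, whose proteins bring the lipid to the outer leaflet, rose by 1.26 ± 0.16 (limma adjusted p = 0.000934) and 1.58 ± 0.32 (adjusted p = 0.00593). In KC 2 of 3 arrays had the Xkr8 probe well above background, and its call ended with normexp (0.20, adjusted p = 0.163). Tmem30a, which encodes a subunit of the flippases that return it to the inner leaflet, was at 0.07, with an interval from -0.46 to 0.60.

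The receptor tyrosine kinases of this clearance moved in opposite directions. Axl was at 3.78, 4.28 and 3.56 in KC and 7.20, 7.18 and 6.19 in KCS, a rise of 2.98 ± 0.35 (adjusted p = 0.000599), and Mertk rose by 2.93 ± 0.36 (adjusted p = 0.000732). Tyro3 was at 3.87 ± 0.26 in KC and 2.69 ± 0.30 in KCS (SD, n = 3 each) and fell by 1.18 ± 0.23 (SE, limma adjusted p = 0.00530), though it was higher, by 1.70, with spike-in scaling. The scavenger receptors split too: Stab1 rose by 3.38 ± 0.25 and Stab2 fell by 2.42 ± 0.33, and Stab2 was at 0.46 with spike-in scaling. Pros1, a ligand of these kinases, rose by 2.70 ± 0.26. Gas6, another ligand, was at 0.62 with overlapping groups and did not pass (limma adjusted p = 0.0756). It did pass with some other scalings, such as median centring (0.98, adjusted p = 0.0137). The macrophage markers that also rose are given with the annexins, and their part was not tested.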
